A study of Rattus norvegicus with 16 samples.

Results

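Elastic fibre proteins and the lysyl oxidases that crosslink them were examined as a set of 10 genes in rat glomeruli, the filtering units of the kidney. The members were taken by symbol from the deposited count table and are Eln, Fbn1, Fbln5, Emilin1, Mfap4, Lox, Loxl1, Loxl2, Loxl3 and Loxl4, 10 of 36351 genes. Of these, 9 passed the filter on low counts, as did 17061 genes in all, and Mfap4 did not. Glomeruli were taken on day 11 from 4 groups of 4 rats. PAN+Pio rats received puromycin aminonucleoside (PAN), a podocyte toxin that causes nephrotic syndrome, as a single tail vein dose of 50 mg/kg on day 0, and then pioglitazone, which activates the receptor PPAR gamma, by mouth at 10 mg/kg daily. PAN+MP rats received the same PAN dose and then the glucocorticoid methylprednisolone at 15 mg/kg daily by intraperitoneal injection. PAN rats received PAN and oral vehicle, and Sham rats were healthy controls on oral vehicle, so no control group received intraperitoneal vehicle. Strain, sex and age are not given in the labels. The stated purpose was to find disease-induced expression changes that both drugs lessen, with attention to the extracellular matrix.

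Elastic fibres are built from a core of crosslinked elastin on a scaffold of fibrillin microfibrils, and they give vessels and other tissues their recoil. Fibulins and emilins guide elastin onto the microfibrils. Lysyl oxidases are copper enzymes that oxidise lysine side chains of elastin and collagen, after which the chains link covalently. In the kidney elastic fibres are best known from the walls of arteries and arterioles, and microfibril proteins are also known from the mesangium, the supporting tissue between glomerular capillaries.

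Total counts were 22802109 to 32571877 per library, and the 10 genes together had between 6779 and 16538 reads in a library. Podocyte markers were abundant in all libraries, with a summed level of 17100 to 29500 CPM over 6 genes, where CPM is the read count relative to a library size adjusted by TMM factors. Each library carries the name of its group and a number from the order of the columns, which serves only as a label. In such bulk samples more RNA per cell and more cells of the type that makes it cannot be told apart. Levels of different genes were not compared, because no gene lengths were used.

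RefSeq promoter sequence on build GRCr8, which is not the build of the counts, was at hand for 5 of the 10 genes. A set of 3 is shown because they span the responses described below, Fbln5 and Loxl1 being lower under both drugs and Loxl3 passing the test against PAN under neither. Each runs from 250 bases before the gene start to 50 after it, on the gene's strand, and capitals mark the core of the SMAD binding element, CAGAC or its reverse complement. The windows are chr6:126742657-126742956 on the minus strand for Fbln5, chr8:67612175-67612474 on the minus strand for Loxl1 and chr4:117098108-117098407 on the plus strand for Loxl3.
Fbln5: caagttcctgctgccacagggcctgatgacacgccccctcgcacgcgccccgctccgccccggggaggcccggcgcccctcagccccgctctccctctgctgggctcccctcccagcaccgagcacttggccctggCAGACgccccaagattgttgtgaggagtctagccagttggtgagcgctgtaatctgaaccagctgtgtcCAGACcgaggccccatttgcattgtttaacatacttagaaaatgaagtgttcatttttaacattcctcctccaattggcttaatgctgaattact
Loxl1: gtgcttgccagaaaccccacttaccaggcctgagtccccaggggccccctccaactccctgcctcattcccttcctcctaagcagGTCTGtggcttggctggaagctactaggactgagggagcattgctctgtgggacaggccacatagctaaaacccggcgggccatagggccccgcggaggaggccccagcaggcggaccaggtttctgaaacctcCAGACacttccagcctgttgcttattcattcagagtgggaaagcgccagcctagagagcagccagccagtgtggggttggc
Loxl3: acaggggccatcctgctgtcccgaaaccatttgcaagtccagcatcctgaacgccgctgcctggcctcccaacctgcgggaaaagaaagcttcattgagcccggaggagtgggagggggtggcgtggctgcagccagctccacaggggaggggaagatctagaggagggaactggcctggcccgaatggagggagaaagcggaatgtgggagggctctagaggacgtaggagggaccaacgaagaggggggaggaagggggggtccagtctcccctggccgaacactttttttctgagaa
The core began at -114 and -45 in Fbln5 and at -165 and -31 in Loxl1, and was not found in Loxl3. Of the promoters not printed, Fbn1 had 1 match, at -188, and so did Loxl4, at -223, a gene called in none of the 6 comparisons. Thus 4 of the 5 promoters held the core, against 50.1% of 33469 promoters of the same length. The half-sites AGAACA, of the glucocorticoid receptor element, and AGGTCA, of the PPAR element, were searched on both strands and were in none of the 5 promoters, against 20.7% and 16.2% of all promoters. TATAAA was also in none of the 5, against 14.2%. Of the 4 motifs searched only CAGAC was found, so no match overlapped another motif, and a match or its lack describes these letters only.

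The disease effect was read from PAN against Sham. Elastin, fibulin 5, emilin 1 and the crosslinking enzymes Loxl1 and Loxl2 were higher in PAN, and no member was lower. In all, 5 of the 9 tested members rose (edgeR quasi-likelihood test, Benjamini-Hochberg adjusted over all tested genes), against 10.4% of all genes that rose (18.9% changed in either direction). The log2 fold change was positive for all 9, with a median of 0.60, beside a median of 0.01 over all tested genes. The PAN and Sham libraries did not overlap for 3 members, all higher in PAN, as was the case for 11.2% of all genes. With both directions counted, 3500 of 17061 tested genes did not overlap.

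Both drugs were then compared with PAN to learn what each changes in diseased glomeruli. The genes Eln, Fbln5, Loxl1 and Loxl2 were lower with either drug, and Fbn1 was lower with methylprednisolone by the same test. In PAN+Pio against PAN, 4 of 9 members fell and none rose, against 2.85% of all genes that fell (3.68% changed). In PAN+MP against PAN, 5 of 9 fell and none rose, against 5.31% of all genes (8.62% changed). The median log2 fold change of the members was -0.50 for PAN+Pio and -0.53 for PAN+MP, beside 0.00 over all genes in each. Libraries did not overlap for the same 4 and 5 members, all lower under the drug, against 6.42% and 8.62% of all genes. With both directions counted, 1823 of 17061 tested genes did not overlap for PAN+Pio and 2690 for PAN+MP. The PAN libraries enter these comparisons and that with Sham, so opposite signs are not independent of each other.

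**Figure D1:**
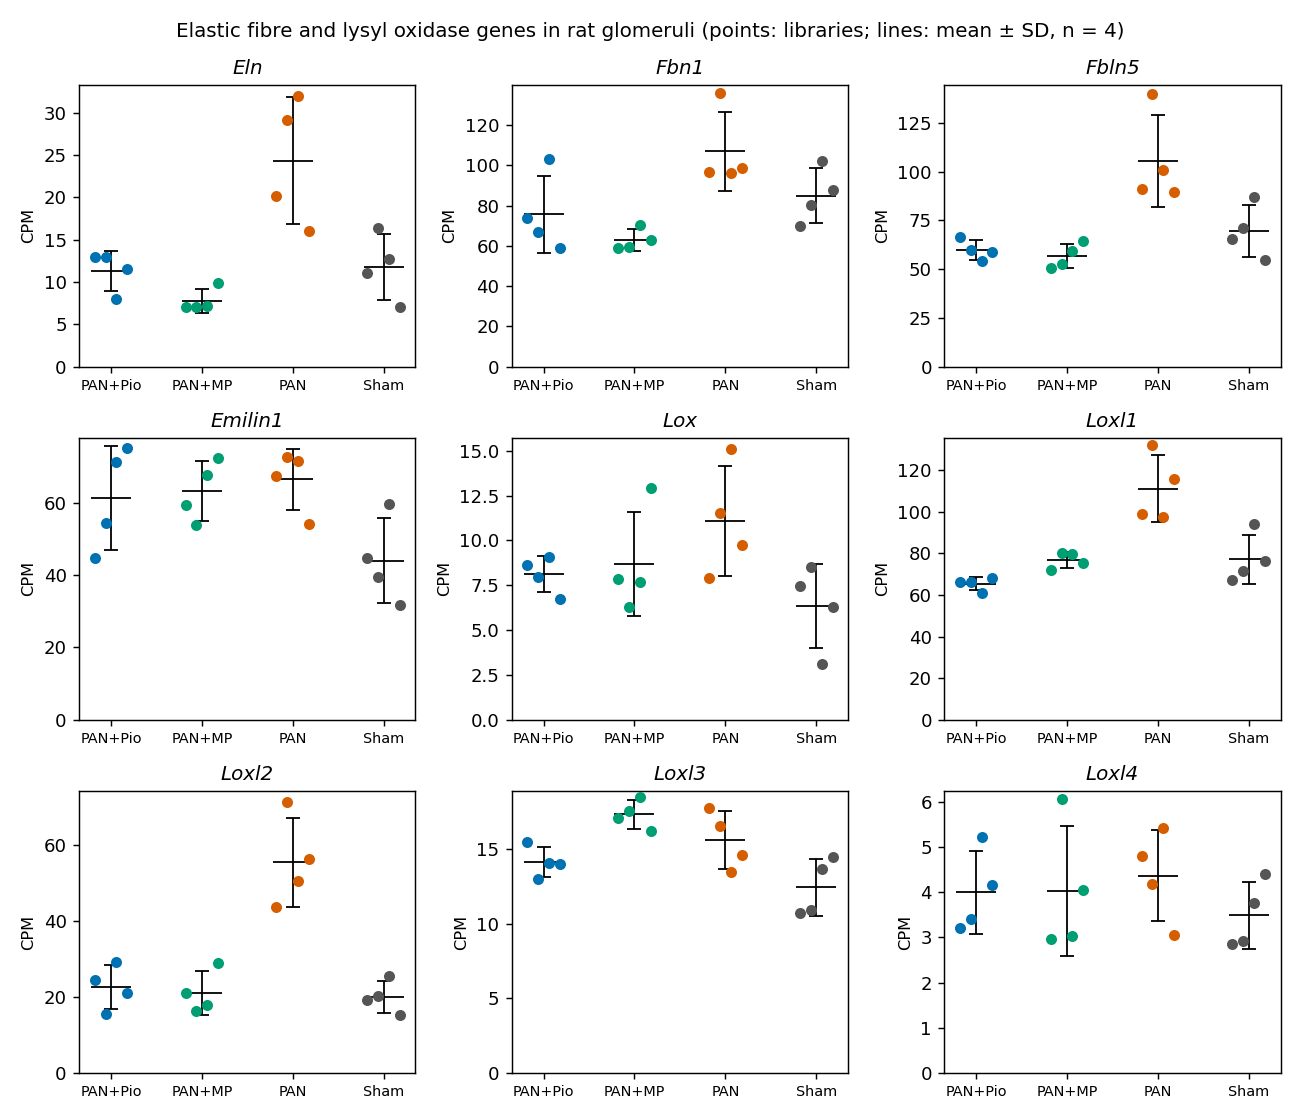
Level in CPM (y axis, linear from 0) of the 9 tested genes in each library, with the mean and SD of each group (n = 4). For Loxl2 the 4 PAN libraries lie between 43.9 and 71.5 CPM, above all 12 libraries of the other groups, and for Emilin1 the PAN+Pio, PAN+MP and PAN libraries share a range.

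Eln encodes elastin, the elastic core protein. Its level was 12.9, 12.9, 7.95 and 11.5 CPM in the PAN+Pio libraries and 7.03, 7, 7.1 and 9.88 CPM in the PAN+MP libraries, against 20.2, 29.1, 32 and 16 CPM in PAN and 11, 16.4, 12.7 and 7.02 CPM in Sham. Every PAN library but the lowest lay above all Sham libraries, and all PAN libraries lay above those of both drug groups. Eln rose in PAN against Sham by 1.05 ± 0.25 (SE) on the log2 scale (adjusted p 0.009, edgeR). In PAN+MP against PAN its log2 fold change was -1.65 ± 0.26, the largest drop of the 9 members (adjusted p 5.57e-04).

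The Eln change in PAN+Pio against PAN was -1.10 ± 0.25 on the log2 scale (adjusted p 0.0224, edgeR). That call was lost without PAN library 2 or 3 or PAN+Pio library 2, 3 or 4, with log2 fold changes of -1, -0.93, -1.17, -0.97 and -1.11 and adjusted p of 0.0771, 0.0764, 0.0574, 0.0677 and 0.0596. It was also lost when the 1 Sham and 1 PAN+Pio library with a tag added to their names were left out, at an adjusted p of 0.0564. The spread of Eln among rats was wide, with a coefficient of variation of 30.6% in PAN and 33% in Sham.

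Fbn1 encodes fibrillin 1, the main microfibril protein, which is mutated in Marfan syndrome in humans. It stood at 74.0, 67.1, 103 and 58.7 CPM in PAN+Pio libraries and 58.7, 59.5, 70.5 and 63.1 CPM in PAN+MP libraries, against 96.8, 136, 96.2 and 98.6 CPM in PAN and 69.8, 80.1, 102 and 87.7 CPM in Sham. PAN and Sham overlapped through Sham library 3, and PAN and PAN+Pio through PAN+Pio library 3, while PAN+MP lay below PAN throughout. Fbn1 fell in PAN+MP against PAN, with a log2 fold change of -0.76 ± 0.16 (adjusted p 0.00726, edgeR). In PAN against Sham the log2 fold change was 0.33 ± 0.16 (adjusted p 0.164). The PAN+Pio value against PAN was -0.50 ± 0.16 (adjusted p 0.114), and -0.68 with 0.0225 without PAN+Pio library 3.

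Fbln5 encodes fibulin 5, which binds tropoelastin and is required for elastic fibres in mice. Its levels were 66.2, 60.0, 54.0 and 59.0 CPM in PAN+Pio libraries and 50.8, 52.5, 59.3 and 64.4 CPM in PAN+MP libraries, against 91.2, 140, 101 and 89.5 CPM in PAN and 65.4, 71.0, 86.8 and 54.9 CPM in Sham. No PAN library overlapped with any other group. The log2 fold change was 0.60 ± 0.15 in PAN against Sham (adjusted p 0.011, edgeR). It was -0.82 ± 0.15 in PAN+Pio against PAN and -0.89 ± 0.15 in PAN+MP against PAN (adjusted p 0.00694 and 0.00107, edgeR). All 3 calls held when any 1 library was left out.

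Emilin1 encodes a glycoprotein at the interface of elastin and microfibrils. It had 44.6, 54.4, 71.2 and 75.1 CPM in PAN+Pio and 59.4, 53.8, 67.6 and 72.4 CPM in PAN+MP, against 67.4, 72.6, 71.5 and 54.1 CPM in PAN and 44.7, 39.5, 59.7 and 31.8 CPM in Sham. Both drug groups overlapped widely with PAN, and Sham held the lowest values. Emilin1 rose in PAN against Sham by 0.60 ± 0.19 on the log2 scale (adjusted p 0.0358, edgeR). That call was lost without Sham library 1, 2 or 4 or PAN library 1, 2 or 3. The log2 values were then 0.60, 0.55, 0.45, 0.59, 0.54 and 0.54, with adjusted p of 0.0769, 0.0778, 0.0997, 0.0661, 0.0643 and 0.104.

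Neither drug changed Emilin1 past the threshold of edgeR's test against PAN. Its log2 fold change was -0.11 in PAN+Pio and -0.07 in PAN+MP against PAN, with 95% intervals of -0.51 to 0.28 and -0.46 to 0.32. Against Sham it was 0.48 ± 0.19 in PAN+Pio and 0.53 ± 0.19 in PAN+MP (adjusted p 0.134 and 0.0719, edgeR). Without Sham library 3 the PAN+MP value was 0.70 (adjusted p 0.0319). Mfap4, a fibrinogen-related glycoprotein of microfibrils, had 0 counts in all 16 libraries, which allows a level of up to 0.0932 to 0.133 CPM depending on the library, for counting error only. That limit holds only if reads of Mfap4 could be counted under the annotation used, which was not tested.

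Loxl2 encodes a lysyl oxidase-like enzyme known to act on collagen IV of basement membranes. It had 24.6, 15.5, 29.3 and 21.2 CPM in PAN+Pio libraries and 21.2, 16.2, 17.8 and 29.1 CPM in PAN+MP libraries, against 43.9, 71.5, 50.5 and 56.5 CPM in PAN and 19.3, 20.3, 25.5 and 15.3 CPM in Sham. PAN stood apart from all other groups, which overlapped with one another. Of the members it had the largest rise in PAN against Sham, 1.47 ± 0.22 on the log2 scale (adjusted p 3.03e-04, edgeR). The log2 fold change was -1.30 ± 0.22 in PAN+Pio against PAN and -1.40 ± 0.22 in PAN+MP against PAN (adjusted p 0.00458 and 5.96e-04, edgeR). These calls held without any 1 library. Against Sham, Loxl2 was at 0.17 (95% interval -0.29 to 0.64) in PAN+Pio and 0.07 (-0.40 to 0.53) in PAN+MP on the log2 scale.

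Loxl1 encodes the family member tied most closely to elastin, since mice without it fail to renew elastic fibres. Its levels were 66.3, 66.3, 61.1 and 68.1 CPM in PAN+Pio and 72, 80, 79.8 and 75.3 CPM in PAN+MP, against 99.1, 132, 97.6 and 116 CPM in PAN and 67.2, 71.6, 94.1 and 76.3 CPM in Sham. The drug groups were tight, with a coefficient of variation of 4.60% in PAN+Pio and 5.05% in PAN+MP, and neither they nor Sham reached any PAN library. Loxl1 rose in PAN against Sham by 0.52 ± 0.11 on the log2 scale (adjusted p 0.00321, edgeR). It changed by -0.76 ± 0.11 in PAN+Pio and by -0.53 ± 0.11 in PAN+MP against PAN (adjusted p 0.00185 and 0.0047, edgeR). Leaving out any 1 library ended none of the 3 calls.

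Lox encodes lysyl oxidase itself, which acts on elastin and fibrillar collagen. It stood at 8.64, 7.98, 9.05 and 6.74 CPM in PAN+Pio and 7.83, 6.31, 7.70 and 12.9 CPM in PAN+MP, against 7.92, 11.5, 15.1 and 9.75 CPM in PAN and 7.48, 8.54, 3.09 and 6.27 CPM in Sham. PAN held the higher values and Sham the lower ones, with an overlap in PAN library 1. The log2 fold change in PAN against Sham was 0.81 ± 0.28 (adjusted p 0.0567 in edgeR and 0.0316 in DESeq2). Without Sham library 2 it was 0.98 (adjusted p 0.036), and without PAN library 1 it was 0.94 with 0.0437. Neither drug passed the test against PAN, with log2 values of -0.45 (95% interval -1.04 to 0.14) for PAN+Pio and -0.35 (-0.94 to 0.24) for PAN+MP.

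Loxl3 and Loxl4 are the less studied lysyl oxidase-like enzymes. Loxl3 had 15.5, 13, 14.1 and 14 CPM in PAN+Pio and 17.1, 17.6, 18.5 and 16.2 CPM in PAN+MP, against 17.8, 16.6, 13.5 and 14.6 CPM in PAN and 10.7, 10.9, 13.7 and 14.5 CPM in Sham. All PAN+MP libraries lay above all Sham and all PAN+Pio libraries. In PAN+MP against Sham, Loxl3 rose by 0.48 ± 0.12 on the log2 scale (adjusted p 0.0186, edgeR), and stood at 0.41 with an adjusted p of 0.0685 when Sham library 1 was left out. Against Sham, PAN was at 0.32 ± 0.12 (adjusted p 0.065), and at 0.39 with 0.0375 without Sham library 4. Loxl3 overlaps Htra2 in the RefSeq annotation, and since strand use in counting was not stated, its reads and those of Htra2 may not be fully separated.

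The group means of Loxl4 lay between 3.49 and 4.36 CPM. Its levels ran from 3.20 to 5.22 CPM in PAN+Pio, 2.97 to 6.06 CPM in PAN+MP, 3.05 to 5.42 CPM in PAN and 2.86 to 4.40 CPM in Sham. The log2 fold change was -0.13 in PAN+Pio and -0.11 in PAN+MP against PAN, and 0.32 in PAN against Sham (95% interval -0.22 to 0.86), and no adjusted p was under 0.05 in edgeR's test. It had 65 to 195 reads per library.

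**Figure D2:**
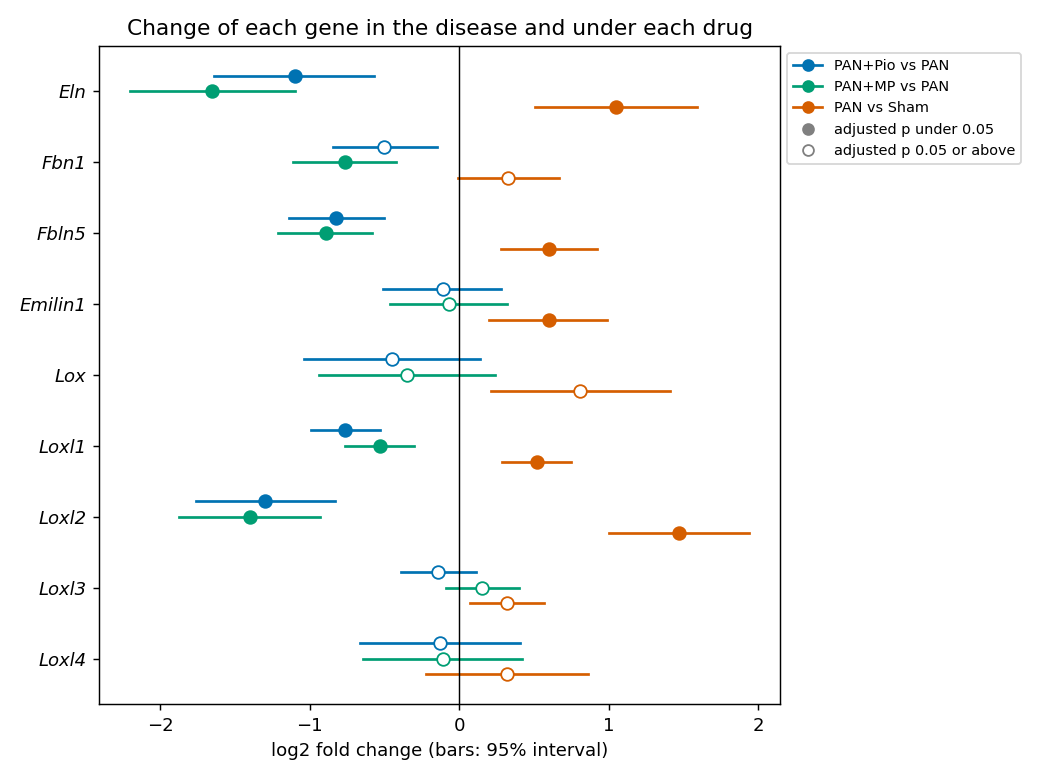
Log2 fold change (x axis) with its 95% interval for each tested gene (y axis) in PAN+Pio against PAN, PAN+MP against PAN and PAN against Sham, with filled points where edgeR's adjusted p was under 0.05. Eln, Fbln5, Loxl1 and Loxl2 have filled points in all 3 comparisons, while the drug intervals of Emilin1, Lox, Loxl3 and Loxl4 include 0.

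The drug groups were also compared with Sham to learn what differed from healthy glomeruli under treatment. In PAN+MP against Sham 1 of 9 members rose, Loxl3, and none fell, against 5.98% of all genes that rose (12.7% changed). Loxl3 was also the 1 member whose PAN+MP libraries all lay above Sham, as did those of 10.6% of all genes. With both directions counted, 3508 of 17061 tested genes did not overlap. The number of members called was 0 without Sham library 1, and 2 without Sham library 3, where Emilin1 joined, or Sham library 4, where Eln joined as lower. Eln stood at -0.60 ± 0.26 and Fbn1 at -0.43 ± 0.16 on the log2 scale, below Sham (adjusted p 0.128 and 0.0868, edgeR). Without Sham library 4 the Eln value was -0.79 (adjusted p 0.0424). In PAN+Pio against Sham none of the 9 passed edgeR's test, against 5.08% of all genes, and 2 had unadjusted p-values under 0.05. In DESeq2, which called 1734 genes in that comparison, none of the 9 passed.

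PAN+Pio was compared with PAN+MP to learn where the drugs differ. None of the 9 members passed edgeR's test, against 0.633% of all genes, and 3 had unadjusted p-values under 0.05. None of them passed in DESeq2, which called 284 genes between the drugs. The 3 below 0.05 before adjustment were Eln, with a log2 fold change of 0.55 (95% interval 0.00 to 1.09), Loxl1, with -0.23 (-0.46 to 0.00), and Loxl3, with -0.29 (-0.54 to -0.05), at adjusted p of 0.573, 0.571 and 0.443. Libraries of the drug groups did not overlap for Loxl1 and Loxl3, 2 of 9 members, both lower in PAN+Pio, against 3.39% of all genes. With both directions counted, 1190 of 17061 tested genes did not overlap. For the other members the intervals of the difference between drugs reached from -0.70 to 0.61 on the log2 scale.

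Further genes of the pathway were counted from 5 lists, given here as numbers of tested genes. The lists were chosen with earlier results of these data known, so their shares beside all genes are a description only. Over all tested genes 18.9% were called in PAN against Sham and 10.4% rose, while 3.68% were called in PAN+Pio and 8.62% in PAN+MP against PAN. Genes that fell made up 2.85% in PAN+Pio and 5.31% in PAN+MP. Among 21 genes of microfibril and elastic fibre assembly, 3 rose and 3 fell in PAN against Sham, 6 of 21 against 18.9% of all genes, with a median log2 fold change of 0.09. Efemp2, fibulin 4, which recruits lysyl oxidase to elastin in mice, averaged 29.9 ± 3.01 CPM in PAN and 17.9 ± 1.98 CPM in Sham (SD, n = 4), a log2 fold change of 0.74 ± 0.09 (adjusted p 5.93e-05, edgeR). It fell by 0.51 ± 0.09 in PAN+Pio and fell by 0.41 ± 0.09 in PAN+MP against PAN. Efemp1, fibulin 3, ran the other way, at 21.8 ± 7.35 CPM in PAN and 45.1 ± 14.0 CPM in Sham, a log2 fold change of -1.05 ± 0.23 (adjusted p 0.00521, edgeR). With only the PAN and Sham libraries fitted it was -1.03 (adjusted p 0.0546).

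Efemp1 rose by 1.05 ± 0.23 in PAN+Pio and by 1.21 ± 0.23 in PAN+MP against PAN on the log2 scale (adjusted p 0.0185 and 0.00319, edgeR). The PAN+Pio call was lost without PAN library 1 or 2 or PAN+Pio library 1 or 4, at adjusted p of 0.0574, 0.069, 0.0544 and 0.0504. Fkbp10, a chaperone of tropoelastin and collagen, rose by 0.81 ± 0.25 in PAN, with adjusted p of 0.0549 to 0.112 without Sham library 1, 2 or 4 or PAN library 1, 2 or 3. Fbn2, fibrillin 2, fell by 0.89 ± 0.23 in PAN+MP against PAN, and the call was lost without PAN library 2 or PAN+MP library 2, at adjusted p of 0.0867 and 0.0607. The PAN count of this list was 3 with Sham library 1, PAN library 1 or PAN library 3 left out. Against PAN, 1 gene rose and 1 fell in PAN+Pio, a count of 1 without PAN library 1 or 2 or PAN+Pio library 1 or 4. In PAN+MP 1 rose and 2 fell. In PAN+MP against Sham 2 of the 21 were higher and 3 lower, against 12.7% of all genes called. Fbn2 was at -0.91 ± 0.23, Ltbp1 at -0.88 ± 0.18 and Adamtsl4 at 0.66 ± 0.15 (adjusted p 0.0229, 0.00856 and 0.0119, edgeR). These calls held in 6, 8 and 8 of 8 fits with 1 library left out. In PAN+Pio against Sham 1 gene was called, Mmrn2, which was lower, against 5.08% of all genes.

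Among 9 genes that process lysyl oxidases or collagen or supply copper, 2 of the 9 rose in PAN against Sham, against 10.4% of all genes, and none fell, with a median of 0.20. Adamts14, a procollagen peptidase, averaged 66.2 ± 22 CPM in PAN and 2.41 ± 0.767 CPM in Sham, 4.78 ± 0.33 on the log2 scale (adjusted p 9.9e-07, edgeR). It fell by 2.01 ± 0.28 in PAN+Pio and fell by 2.96 ± 0.29 in PAN+MP against PAN. It remained above Sham, by 2.76 ± 0.31 in PAN+Pio and by 1.81 ± 0.31 in PAN+MP (adjusted p 1.96e-04 and 0.00375, edgeR). Pcolce, which enhances procollagen C-proteinase, averaged 419 ± 35.0 CPM in PAN and 253 ± 60.8 CPM in Sham, 0.73 ± 0.21 on the log2 scale (adjusted p 0.0246). Leaving out Sham library 1 or PAN library 1 or 3 ended that call and made the count 1, at adjusted p of 0.0781, 0.0601 and 0.0569.

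Bmp1, the protease that activates pro-lysyl oxidase, and Atp7a, the copper pump that loads it, stood at 0.18 ± 0.13 and 0.06 ± 0.10 on the log2 scale in PAN against Sham (adjusted p 0.34 and 0.68, edgeR). They were named for their role and not by the size of their change. Against PAN, 1 gene of this list fell in PAN+Pio, or 2 without PAN library 4, and 2 fell in PAN+MP. Fn1, fibronectin, was the other PAN+MP gene, at -0.79 ± 0.23 (adjusted p 0.0424). Its call was lost, at adjusted p of 0.0518 to 0.153, without any of the 4 PAN+MP libraries or without PAN library 2, 3 or 4. The count was 1 without PAN library 2 or 3 or any PAN+MP library. In PAN+MP against Sham 2 of the 9 were higher, Adamts14 and Pcolce, and 1 lower, Fn1, against 12.7% of all genes called. Pcolce was at 1.07 ± 0.21 and Fn1 at -0.77 ± 0.23 (adjusted p 0.00726 and 0.0394, edgeR). The Fn1 call held in 2 of 8 fits with 1 library left out. Only Adamts14 was called in PAN+Pio against Sham, 1 of 9 against 5.08% of all genes.

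Enzymes that degrade elastin were higher in PAN, 6 of 8 tested against 10.4% of all genes, with none lower and a median log2 fold change of 0.69. Mmp12, macrophage elastase, averaged 10.5 ± 3.05 CPM in PAN and 3.83 ± 1.62 CPM in Sham (SD, n = 4), 1.45 ± 0.34 on the log2 scale (adjusted p 0.00695, edgeR). The lysosomal proteases Ctsl and Ctss, cathepsins L and S, rose by 0.94 ± 0.15 and 0.83 ± 0.21. Against PAN, 4 of the 8 fell with each drug and none rose, with medians of -0.44 in PAN+Pio and -0.46 in PAN+MP. Mmp12 fell by 1.83 ± 0.34 in PAN+Pio and fell by 2.35 ± 0.35 in PAN+MP, and Mmp2, gelatinase A, fell by 0.81 ± 0.15 in PAN+Pio and fell by 1.28 ± 0.15 in PAN+MP. Ctss fell by 1.23 ± 0.22 in PAN+Pio and fell by 0.89 ± 0.21 in PAN+MP, where its adjusted p was 0.0516 without PAN+MP library 3. Ctsk and Ctsl, 2 of the 8, were higher in PAN+Pio than in Sham, against 5.08% of all genes called, each in 2 of 8 fits with 1 library left out. They were also higher in PAN+MP than in Sham, in 6 and 5 of 8 such fits. There 1 gene was lower, Mmp2, at -0.78 ± 0.15 (adjusted p 0.00658, edgeR), against 12.7% of all genes called.

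Collagen chains that lysyl oxidases crosslink were also higher in PAN, 5 of 8 tested against 10.4% of all genes, with none lower and a median of 0.69, and 3 with Sham library 1 left out. Col1a1, of collagen I, averaged 215 ± 191 CPM in PAN and 14.0 ± 4.06 CPM in Sham, 3.94 ± 0.60 on the log2 scale (adjusted p 3.33e-04, edgeR). Without PAN library 4 the Col1a1 value was 3.15. Col1a2, the other chain of collagen I, did not pass the filter on low counts and was not tested. Col5a3, of collagen V, rose by 2.13 ± 0.33 at a low level, 3.02 ± 1.34 CPM in PAN and 0.685 ± 0.023 CPM in Sham. Col3a1, of collagen III, rose by 1.39 ± 0.38, and lost the call without Sham library 1 or PAN library 1 or 3 at adjusted p of 0.0634, 0.0503 and 0.0861. Against PAN, 3 of the 8 fell in PAN+Pio and 5 in PAN+MP, with medians of -0.56 and -0.97.

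Col5a3 fell by 1.80 ± 0.32 in PAN+Pio and fell by 2.38 ± 0.33 in PAN+MP, to low means of 0.863 and 0.574 CPM. In PAN+Pio Col5a1 fell by 0.68 ± 0.10 and Col5a2 fell by 0.59 ± 0.14, and the Col5a2 call was lost without PAN library 2 or PAN+Pio library 2 or 4, at adjusted p of 0.0891, 0.088 and 0.0796 in edgeR's test. In PAN+MP Col4a1 and Col4a2, the chains of the common collagen IV network, had log2 fold changes of -1.11 ± 0.18 and -1.06 ± 0.18, both called. Col1a1 stayed higher than in Sham in PAN+Pio, by 3.55 ± 0.59, and in PAN+MP, by 2.77 ± 0.57, with adjusted p of 0.00351 and 0.0091. It was the only chain called in PAN+Pio against Sham, 1 of 8 against 5.08% of all genes. In PAN+MP against Sham 1 chain was higher and 2 were lower, against 12.7% of all genes called. The 2 were Col4a1 and Col4a2, at -0.64 ± 0.18 and -0.62 ± 0.18 (adjusted p 0.0317 and 0.0347, edgeR). These calls held in 3 and 2 of 8 fits with 1 library left out.

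The last list held lysyl hydroxylases, other crosslinking enzymes and the prolyl hydroxylases P4ha1 and P4ha2. In PAN against Sham none of 7 passed edgeR's test, 2 had unadjusted p-values under 0.05 and none passed in DESeq2, and the count was 2 with Sham library 4 left out and 1 with Sham library 3 or PAN library 2 left out. In PAN+Pio against PAN none passed edgeR's test, 2 had unadjusted p-values under 0.05 and none passed in DESeq2. In PAN+MP against PAN 1 of the 7 rose and 1 fell. Plod2, a lysyl hydroxylase, rose by 0.64 ± 0.16, and Tgm2, tissue transglutaminase, fell by 0.59 ± 0.15. Plod2 lost the call without PAN library 2 or PAN+MP library 3, at adjusted p of 0.0589 and 0.0607, and Tgm2 without PAN library 2 or 4 or PAN+MP library 1, 2 or 3, at adjusted p of 0.0512 to 0.0669. The count was 0 without PAN library 2 or PAN+MP library 3, and 1 without PAN library 4 or PAN+MP library 1 or 2. In PAN+MP against Sham 1 of the 7 was higher, Plod2, and 2 were lower, P4ha2 and Pxdn, against 12.7% of all genes called. Their log2 fold changes were 0.59 ± 0.16, -0.68 ± 0.18 and -0.52 ± 0.11. These calls held in 6, 4 and 8 of 8 fits with 1 library left out. In PAN+Pio against Sham 1 gene was called, P4ha2, which was lower, against 5.08% of all genes.

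**Figure D3:**
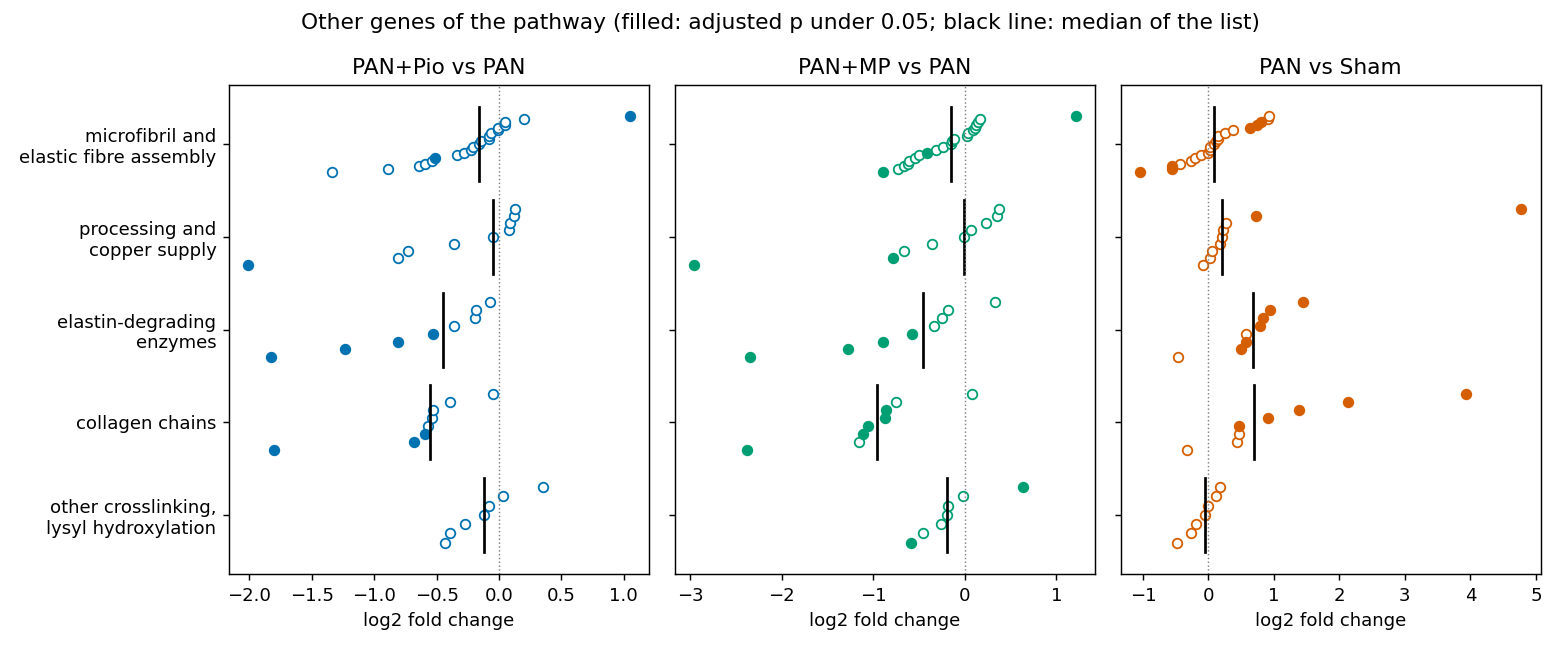
Log2 fold change (x axis) of each tested gene of the 5 lists (y axis) in PAN+Pio against PAN, PAN+MP against PAN and PAN against Sham, filled where edgeR's adjusted p was under 0.05, with the median of each list as a black line. Elastin-degrading enzymes and collagen chains lie mostly right of 0 in PAN against Sham, with medians of 0.69 each, and mostly left of 0 under each drug.

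Markers of several cell types moved with the same groups, and their part in the results was not tested. Over all tested genes 18.9% were called and 10.4% rose in PAN against Sham. Against PAN, 3.68% were called and 2.85% fell in PAN+Pio, and 8.62% were called and 5.31% fell in PAN+MP. Mesangial markers, of which 4 of 5 were tested, had a summed level of 1260 to 1440 CPM in PAN+Pio and 1250 to 1390 CPM in PAN+MP, against 1840 to 2900 CPM in PAN and 1180 to 1840 CPM in Sham. Of these 1 rose in PAN against Sham, Des, desmin, which is also known to rise in injured podocytes, with 919 ± 300 CPM in PAN and 156 ± 30.3 CPM in Sham. The mean sum, Des included, was 2270 CPM in PAN and 1370 CPM in Sham. Itga8, a mesangial integrin, averaged 757 ± 87.5 CPM in PAN and 596 ± 112 CPM in Sham. Pdgfrb, the PDGF receptor beta, averaged 486 ± 107 CPM in PAN and 482 ± 158 CPM in Sham. Gata3 had the lower mean in PAN, 110 ± 19.1 CPM against 132 ± 28.2 CPM in Sham. With each drug 2 of the 4 tested mesangial markers fell against PAN. Tbx18 was at 0 in all PAN+Pio, PAN and Sham libraries.

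Vascular smooth muscle markers, 6 tested, summed to 175 to 216 CPM in PAN+Pio and 180 to 226 CPM in PAN+MP, against 211 to 288 CPM in PAN and 184 to 217 CPM in Sham, and 1 of them rose in PAN against Sham. Smtn made up most of that sum, with 189 ± 37.6 CPM in PAN and 150 ± 27.6 CPM in Sham, followed by Myh11, with 50.5 ± 7.17 and 40.7 ± 12.5 CPM. Group means of Cnn1, Actg2, Lmod1 and Ntrk3 were low, at 0.295 to 1.90 CPM. Macrophage markers, 4 of 6 tested, summed to 49.1 to 74.7 CPM in PAN+Pio and 44.3 to 74.7 CPM in PAN+MP, against 89.8 to 142 CPM in PAN and 50.4 to 76.4 CPM in Sham, and 3 rose in PAN. With each drug 2 of these 4 fell against PAN. Fibroblast markers, 5 of 7 tested, summed to 43.6 to 63.3 CPM in PAN+Pio and 29.9 to 44.9 CPM in PAN+MP, against 38.9 to 61.3 CPM in PAN and 44.2 to 68.0 CPM in Sham. Pi16 made up most of that sum, with 31.1 ± 8.45 CPM in PAN and 42.9 ± 12.5 CPM in Sham.

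The other 4 tested fibroblast markers had higher means in PAN than in Sham. Pdgfra averaged 14.2 ± 7.93 CPM in PAN and 8.45 ± 2.79 CPM in Sham, and Scara5 averaged 2.79 ± 1.57 CPM in PAN and 0.624 ± 0.197 CPM in Sham. The means of Dpt were 3.17 CPM in PAN and 1.36 CPM in Sham, and those of Dcn were 1.58 CPM in PAN and 0.545 CPM in Sham. The median log2 fold change of the 5 was 1.23 in PAN against Sham, 2 of them rose by edgeR's test, and 1 fell with each drug against PAN. Lum, lumican, was at 0 in all PAN+Pio and all Sham libraries.

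Of the other marker lists, in PAN against Sham, 1 of 6 podocyte markers rose and 2 fell, 4 of 6 glomerular endothelial markers fell, and 1 of 5 parietal epithelial markers and the 1 tested juxtaglomerular marker rose. None of 5 arterial endothelial or 5 distal nephron markers passed edgeR's test. Against PAN, 1 podocyte and 1 arterial endothelial marker rose with each drug. With PAN+Pio 1 arterial endothelial marker fell, and with PAN+MP 1 glomerular endothelial marker fell. No juxtaglomerular, parietal epithelial or distal nephron marker was called with either drug against PAN.

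Proximal tubule markers, which come from tissue outside the glomerulus, ranged widely within groups. Their sum over 8 genes was 4080 to 5070 CPM in PAN+Pio and 4350 to 5530 CPM in PAN+MP, against 1710 to 6050 CPM in PAN and 2550 to 5540 CPM in Sham, and none of the 8 passed edgeR's test between PAN and Sham. The lowest sums, 1710 CPM in PAN library 2 and 2550 CPM in Sham library 3, came from the libraries with the highest Fbn1, Fbln5, Loxl1 and Loxl2 of their groups. Without PAN library 2 the log2 fold change in PAN against Sham was 0.42 for Fbln5, 0.42 for Loxl1 and 1.31 for Loxl2, and each kept an adjusted p under 0.05 in edgeR's test. Without Sham library 3 the values were 0.71 for Fbln5, 0.61 for Loxl1 and 1.58 for Loxl2.

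Marker scores were also set beside the members across the 16 libraries after removal of group means, as a description of libraries that share depth and preparation. The tubule score had a Pearson r of -0.64 with Fbn1, -0.59 with Fbln5, -0.58 with Loxl1 and -0.43 with Loxl2. With Eln and Lox it had -0.01 and 0.32. Other scores were negative too, the parietal epithelial one at -0.57 with Fbn1, -0.56 with Fbln5, -0.50 with Loxl1 and -0.49 with Loxl2. In the same order, the podocyte score had -0.52, -0.50, -0.56 and -0.40, and the distal nephron score -0.46, -0.35, -0.44 and -0.45. The mesangial score had r of 0.79 with Loxl1, 0.70 with Fbln5, 0.64 with Fbn1, 0.54 with Loxl2, 0.16 with Eln and -0.50 with Lox. The glomerular endothelial score had r of 0.75 with Fbln5 and 0.67 with Loxl1, and the macrophage score 0.67 with Loxl2 and 0.60 with Fbln5. More than 1 cell type score therefore moved with Fbln5, Loxl1 and Loxl2 within groups, and the largest r of Eln among the 11 scores was 0.57, with the arterial endothelial markers.

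**Figure D4:**
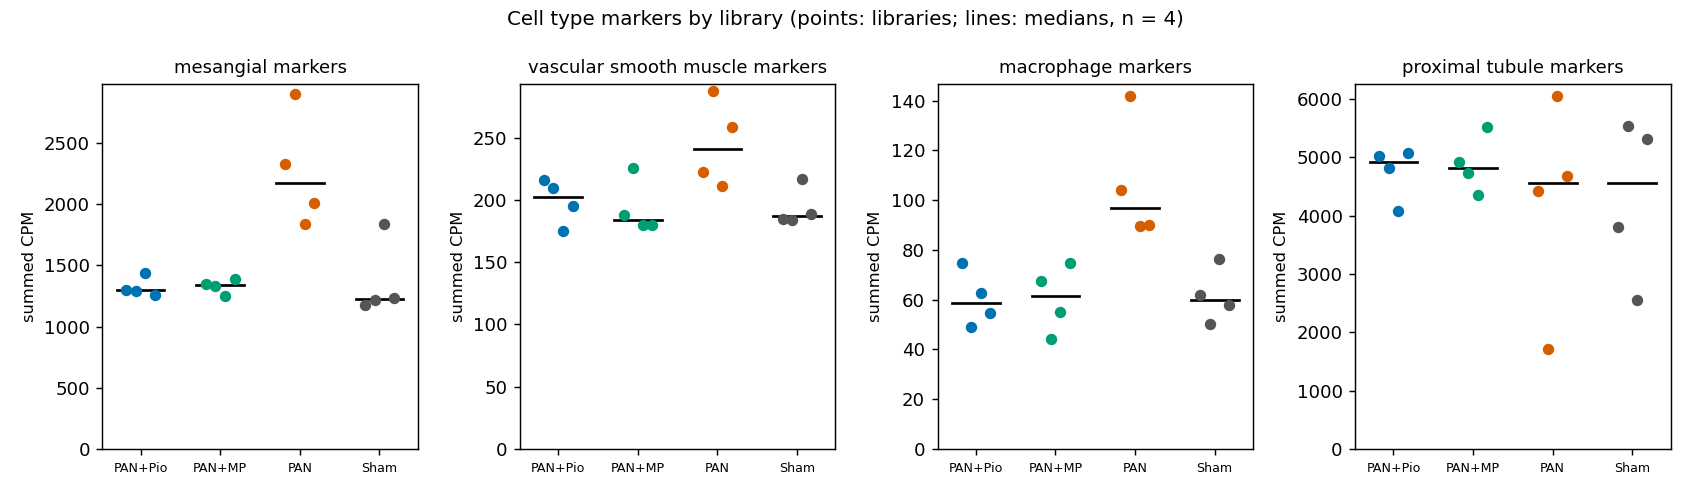
Summed level in CPM (y axis, linear from 0) of mesangial, vascular smooth muscle, macrophage and proximal tubule markers in each library, with the median of each group (n = 4). The mesangial and macrophage sums are highest in PAN, with PAN library 2 at the top. The tubule sum of that library, 1710 CPM, is the lowest of all 16. Within the mesangial sum, Des averages 919 CPM in PAN and 156 CPM in Sham.

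The members were also compared with one another by Pearson r of log2 levels over the 16 libraries, a description in which the libraries share their groups. Group differences included, Eln had r of 0.90 with Fbln5, 0.77 with Loxl2, 0.64 with Loxl1 and 0.61 with Fbn1. Fbln5 had r of 0.86 with Loxl1, 0.86 with Loxl2 and 0.78 with Fbn1, while Loxl1 and Loxl2 had 0.79 with each other. Fbn1 had r of 0.73 with Loxl2 and 0.67 with Loxl1. Lox had an r of 0.16 with Loxl1 and 0.51 with Loxl2, and Loxl4 of at most 0.34 with any member.

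With group means removed, most of these values were lower. Eln kept an r of 0.71 with Fbln5, but had 0.25 with Loxl2, 0.07 with Loxl1 and -0.13 with Fbn1. Fbln5 had 0.63 with Loxl1, 0.58 with Loxl2 and 0.40 with Fbn1, and Loxl1 and Loxl2 had 0.29. Fbn1 had 0.55 with Loxl2 and 0.47 with Loxl1. Within groups these 5 genes thus did not vary together as 1 set.

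The genes whose pattern over the 16 libraries was most like that of a member were ranked by Pearson r of log2 levels. For Eln they were Cerk, Cdc42se1 and Fbln5, with r of 0.917, 0.905 and 0.902. For Fbln5 they were Ilk, Srpx and Hrct1, with 0.935, 0.933 and 0.917, and for Fbn1 Ddah2, Twist1 and Nid1, with 0.932, 0.925 and 0.922. Loxl2 was closest to Usp1, Cdkn2c and Csrp1, with r of 0.958, 0.948 and 0.946, and Loxl1 to Rcn3, C1qtnf5 and Srpx, with 0.888, 0.883 and 0.876. Lox was closest to Cp, ceruloplasmin, at 0.872, St14 at 0.818 and Kcnma1 at 0.808. The closest genes reached 0.856 for Emilin1 (Btg3), 0.873 for Loxl3 (Mapk9) and 0.777 for Loxl4 (LOC688064). Srpx was near both Fbln5 and Loxl1.

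In the authors' deposited table, 6 of the members had an adjusted p under 0.05 with higher values in PAN than in Sham, and none with lower values. The authors' deposited table had 4 members lower in PAN+Pio and 5 lower in PAN+MP than in PAN at that threshold. For PAN+Pio against Sham and for the drugs against each other the authors' deposited table had none at that threshold. For PAN+MP against Sham it had 2, both higher. The share of all genes at that threshold in those deposited values was not counted, so these numbers of members have no background beside them.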

How the data were processed

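RNA of isolated rat glomeruli was sequenced from ribosomal and globin RNA depleted libraries made from 350 ng of total RNA. The deposited table held, per the file headers, raw read counts per gene for 16 libraries, and the submitters' processing notes name cutadapt, STAR, HTSeq 0.6.1p1, DESeq2 and the genome build Rnor_6.0, without the role of each tool. The annotation and the strand setting are not given in the sources used here. For each pair of groups the authors deposited log2 fold changes and adjusted p-values, used here only to count members. A further 16 per-sample columns were not used.

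Count columns carry group names but no replicate numbers, so they were assigned to groups and not to single samples. The untreated PAN columns are marked high, a word the labels leave unexplained, and 2 columns, 1 Sham and 1 PAN+Pio, carry an extra tag. Libraries of a group differed by at least 11.2 times the variance of counting alone.

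The analysis used edgeR 4.0.16 under R 4.3.3. The filter was filterByExpr at a minimum count of 10, and TMM factors lay between 0.952 and 1.05. All 16 libraries entered 1 quasi-likelihood model with a coefficient for each group (12 residual degrees of freedom), and 6 pairs of groups were tested. P-values were adjusted by Benjamini-Hochberg over the 17061 tested genes, and a change was called under 0.05. The SE is the size of the log2 fold change over the root of the F statistic, and 95% intervals are the change plus or minus the t quantile times the SE. Log2 CPM had a prior count of 2. The procedure was tested on simulated data. DESeq2 1.42.0, another scaling, no filter, fits of 2 groups and fits without single libraries were tried as alternatives.

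The members, the 5 pathway lists and the 11 marker lists were chosen with earlier results of these data known. All members are described, and from each pathway list at most the 3 called genes with the largest absolute log2 fold change per comparison were named, with the 3 genes most like each member by Pearson r. Limits from 0 counts cover counting error alone, because these reads carried no stated molecular identifiers.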

Additional observations from a re-analysis of the deposited data

Results flagged for a closer look

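Of 36 sets of 4 libraries, 1 per tested member and group, 2 held a library whose gap to the nearest other exceeded Dixon's critical value, and chance gives about 5% of sets. Eln was at 9.88 CPM in PAN+MP library 4, where the other PAN+MP libraries lay between 7 and 7.1 CPM, and all 4 lay below PAN. Fbn1 was at 136 CPM in PAN library 2, where the other PAN libraries lay between 96.2 and 98.6 CPM. That library also had the lowest proximal tubule sum, and the part of this in the Fbn1 level was not tested. Without PAN library 2, Fbn1 was at 0.18 on the log2 scale in PAN against Sham.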

How the results depend on the processing

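No paired analysis was possible because the count columns carry no replicate numbers. No log2 fold change of a member that was called changed sign under any alternative run. The number of members called in PAN+MP against Sham was 2 without the libraries with an extra tag and 2 with only the libraries of the 2 groups, Fbn1 joining as lower in each. When single libraries were left out, the members called numbered 4 to 5 in PAN against Sham, 5 in every PAN+MP against PAN fit, 3 to 4 in PAN+Pio against PAN, 0 to 2 in PAN+MP against Sham and 0 in the remaining comparisons. In PAN against Sham, Emilin1 was at 0.62 (adjusted p 0.0585, edgeR) when only those groups were fitted. Lox was at 0.98 (adjusted p 0.0438, edgeR) without the tagged libraries and at 0.79 (adjusted p 0.0316) in DESeq2. Loxl3 was at 0.31 (adjusted p 0.0448) in DESeq2, which called 7 members there. DESeq2 also called more genes in all in that comparison, 3970 against 3231 in edgeR. Over all genes, fits of 2 groups called 2051 in PAN against Sham, 509 in PAN+Pio against Sham and 172 in PAN+Pio against PAN+MP. DESeq2 called 1077 in PAN+Pio against PAN, 1734 in PAN+Pio against Sham and 284 in PAN+Pio against PAN+MP. Without the tagged libraries 507 were called in PAN+Pio against Sham and 15 for drug against drug. Single libraries left out gave 1978 to 4071 genes in PAN against Sham, 946 to 1387 in PAN+MP against PAN, 276 to 677 in PAN+Pio against PAN, 726 to 2381 in PAN+MP against Sham, 334 to 1124 for PAN+Pio versus Sham and 0 to 130 between drugs. Fits without libraries hold fewer samples, and the cause of the other differences was not tested. Among pathway lists, fits of 2 groups called 2 assembly genes and 3 collagen chains in PAN against Sham, and DESeq2 called 4 assembly and 2 processing genes in PAN+Pio against PAN. With 4 rats a group and a typical variation of 19.4% between them, small changes of members such as Loxl4 were not resolved, and Mfap4 could not be tested.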
